A study of Mus musculus with 50 samples.

Results

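The nuclear genes that encode the subunits of the 5 respiratory chain complexes were examined in the mouse kidney, the mouse liver and mouse skin fibroblasts. Members were the gene names beginning with Nduf and one of the letters a, b, c, s or v before a digit, the genes Sdha to Sdhd, and the names beginning with Uqcr, with Cox4 to Cox8 or with Atp5. This rule found 85 of the 24984 genes counted, of which 35 were placed in complex I, 4 in complex II, 8 in complex III, 18 in complex IV and 16 in complex V. Ndufa4 and Ndufa4l2 were kept apart as a pair because the protein of Ndufa4 is held to belong to complex IV, and 2 other matches (Ndufb4c and Atp5s) are no structural subunits. Ndufab1, Cyc1 and cytochrome c do not match the names and were read in another list, and the genes of the mitochondrial genome were not analysed here.

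Complexes I to IV pass electrons from NADH and succinate to oxygen, and complexes I, III and IV pump protons across the inner mitochondrial membrane while they do so. Complex V, the ATP synthase, lets the protons flow back and makes ATP. Most subunits come from nuclear genes and have to be made in step with a few subunits encoded in the mitochondrion, and several subunits of complex IV exist in forms that differ between tissues. The proximal tubule of the kidney depends on this machinery to drive reabsorption, and hepatocytes use it for biosynthesis and detoxification.

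Gene counts came from 38 RNA-seq libraries in 10 groups, all labelled C57BL/6. The study's methods describe the mice of the tissue series as female. The untreated series held 4 libraries each of kidney and liver from young mice (2.5 months) and old mice (23 to 25 months). The other series held 4 libraries each of kidney and liver from mice of 20 to 21 months given DMSO, a solvent, or an agent labelled 3C, and 3 libraries each of fibroblasts labelled P9 given DMSO or 3C. The labels do not say what 3C or P9 means. ATAC-seq, which marks open chromatin, gave peak lists for 12 libraries, 3 each of young and old kidney and liver without treatment. Nothing in the labels says that replicates of a group came from separate animals or cultures, so p-values measure the spread between these libraries, which may be technical in part. Total counts were 14.2 to 43.7 M per library in the untreated series and 14.5 to 23.9 M in the other. The 6 proximal tubule markers summed to between 5399.8 and 9789.5 CPM (counts scaled to a common library total) in the kidney libraries of both series, the 6 hepatocyte markers to at least 98571.0 CPM in the liver libraries, and the 5 fibroblast markers to at least 12471.3 CPM in the fibroblast libraries. The hepatocyte markers reached at most 211.8 CPM in the young, DMSO and 3C kidneys and 2225.5 CPM in old kidney replicate 2.

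The 5′ flanks of forms that are widely expressed and of forms known from muscle and brown fat are shown first, to set them side by side. Each is the 200 bases before the annotated start, 5′ to 3′ on the strand of the gene, from RefSeq for GRCm38.p6, with each CG pair in capitals. Cox7a2 (chr9:79759854-79760053, - strand) and Cox8a (chr19:7217617-7217816, - strand) encode the widely expressed forms. Cox7a1 (chr7:30183971-30184170, + strand) and Cox8b (chr7:140900447-140900646, - strand) encode the heart and muscle forms.
Cox7a2: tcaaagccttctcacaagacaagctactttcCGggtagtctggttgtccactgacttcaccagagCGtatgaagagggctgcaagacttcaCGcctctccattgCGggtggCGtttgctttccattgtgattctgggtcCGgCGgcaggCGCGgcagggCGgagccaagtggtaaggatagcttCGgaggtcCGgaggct
Cox7a1: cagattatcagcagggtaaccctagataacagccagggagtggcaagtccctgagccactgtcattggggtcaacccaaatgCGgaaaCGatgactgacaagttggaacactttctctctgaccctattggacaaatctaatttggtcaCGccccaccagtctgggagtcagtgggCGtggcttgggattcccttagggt
Cox8a: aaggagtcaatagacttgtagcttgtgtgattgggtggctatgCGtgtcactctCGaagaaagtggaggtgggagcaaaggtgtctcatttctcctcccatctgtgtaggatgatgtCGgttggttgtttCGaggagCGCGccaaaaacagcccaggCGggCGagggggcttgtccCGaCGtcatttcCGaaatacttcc
Cox8b: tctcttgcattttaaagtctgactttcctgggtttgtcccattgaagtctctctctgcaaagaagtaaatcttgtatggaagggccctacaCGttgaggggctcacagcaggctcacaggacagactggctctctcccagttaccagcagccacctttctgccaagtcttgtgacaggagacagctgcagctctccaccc
The windows held 12 CG pairs for Cox7a2, 4 for Cox7a1, 11 for Cox8a and 1 for Cox8b. Over 300 bases around the start, the 71 windows found for 66 of the 85 members held a median of 19 CG pairs, against 7 in all 32851 windows of the table. Of the 200 bases shown, 27 of Cox7a1 and 25 of Cox7a2 are exonic in the annotation.

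Members were short genes, with a median exon length of 908 bp against 2573.5 bp for all annotated genes, and 75.3% of them were under 1500 bp against 27.1% of all. Their exon GC content was a median of 51.7% against 49%. Log2 fold changes of genes outside the lists read here followed exon length in the old against young kidney and in kidney against liver, so these properties bear on those comparisons. For 20 members the genome holds a copy of at least 150 bp at 97% identity or more, and reads that match both places may have been left out or misplaced. Exons of 9 members overlap another gene over at least 10% of their length, and the counting did not use strand.

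Members took 3.19% ± 0.344 of the gene counts in the young kidney (SD, n = 4) and 3.29% ± 0.635 in the old kidney. In the liver they took 1.37% ± 0.154 in the young and 1.24% ± 0.277 in the old. In the treated series they took 2.65% ± 0.053 in the DMSO kidney and 1.27% ± 0.101 in the DMSO liver, and 1.5% ± 0.173 in DMSO fibroblasts (n = 3). All kidney libraries lay above all liver libraries of their series in this share. After scaling by TMM, which sets the bulk of genes equal between libraries, the summed level of members was 22644.5 ± 3105.1 CPM in the young kidney and 20734.0 ± 3752.7 CPM in the young liver, and the libraries overlapped. The share and the scaled level therefore give unlike pictures of the tissue difference, and both are given below.

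The order of the complexes by summed TMM-scaled level was led by complex V and closed by complex II in every group. In the young kidney complex V stood at 9119.4 ± 1180.3 CPM, complex I at 5074.2 ± 774.4, complex IV at 4008.5 ± 677.3, complex III at 2302.6 ± 318.0 and complex II at 1721.9 ± 108.4 (SD, n = 4). In DMSO fibroblasts complex V stood at 4476.8 ± 391.1 CPM, and complexes I (3410.5 ± 457.3) and IV (3324.5 ± 504.3) lay within one SD of each other. The sums follow the number and length of the genes in each complex, so only the same complex is compared between groups.

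**Figure D1:**
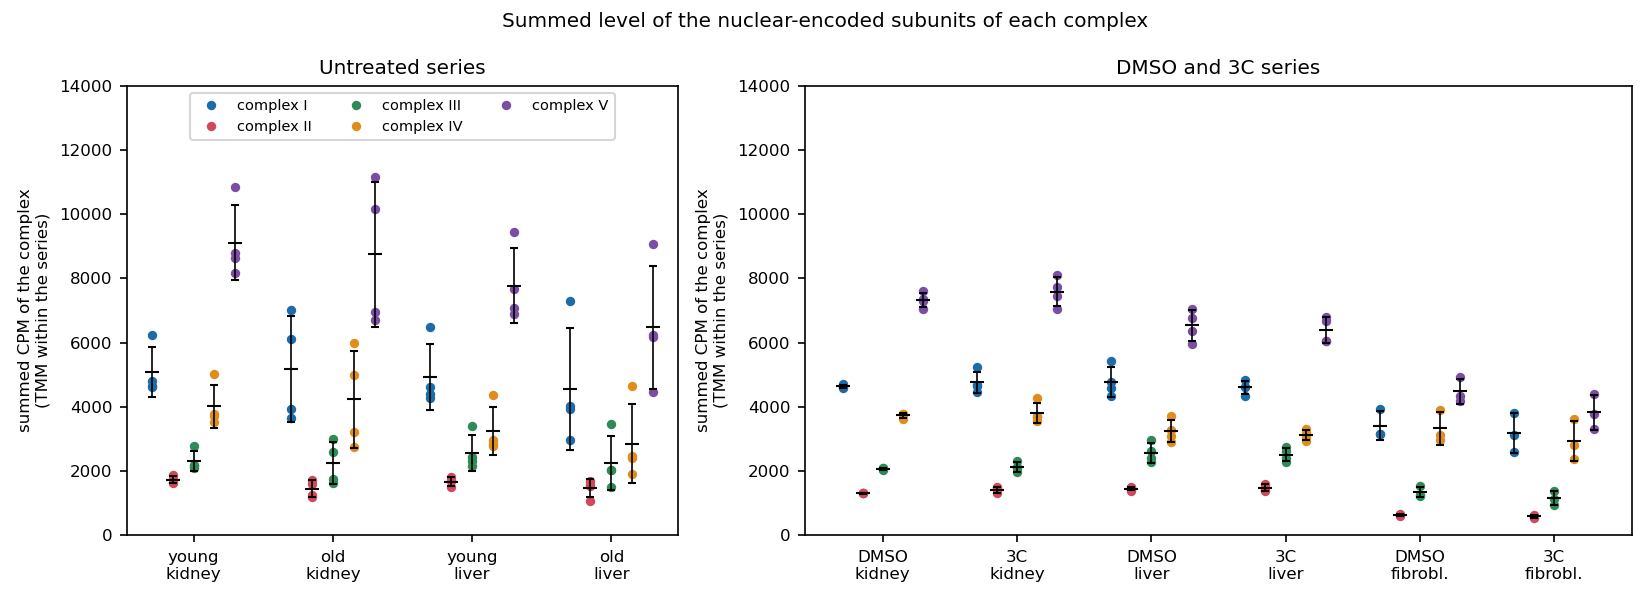
Summed CPM of the subunits of each complex (vertical axis, TMM scaling within each series) in each library of the 10 groups (horizontal axis), with the mean and SD as bars. Complex V is highest and complex II lowest in every group. In the complexes other than II, the libraries of the untreated series spread more (by SD) than those of the kidneys and livers with DMSO or 3C.

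Levels of single genes were compared per kilobase of exon (RPKM, TMM-scaled within each series, mean of the 10 group means). Atp5b, the catalytic beta subunit of the ATP synthase, had the highest level of complex V at 1027.8 RPKM, with group means from 532.5 to 1597.9. Cox6a1, the widely expressed form of a regulatory subunit, was highest in complex IV at 941.9 RPKM by this mean and in 7 of the 10 groups, while Cox4i1 was above it in the young and the 3C kidney and Cox8a in the old kidney, by less than 1 SD. Ndufb9, an accessory subunit of the membrane arm, led complex I at 334.7 RPKM (8 of 10 groups), Uqcr11, a small accessory subunit, led complex III at 460.5 (6 of 10), and Sdhb, the iron-sulfur subunit, led complex II at 240.9.

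The lowest values within complexes were of unequal kinds. Atp5g1 stood at 44.7 RPKM in complex V, Uqcrc2, a core subunit, at 152.9 in complex III, and Sdhc, a membrane anchor, at 84.6 in complex II. Cox7b2 and Cox8c, forms known from the testis, had at most 1 count in any of the 38 libraries. Ndufs5, an accessory subunit of complex I, was listed at 0 in all 38 libraries, and the lowest complex I member after it was Ndufb2 at 18.1 RPKM, for which 6 near-identical copies were found. RPKM divides by exon length, which is 4375 bp for Ndufb2 and 4912 bp, the longest of all members, for Atp5g1. Their places per kilobase therefore need not hold by counts.

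Ndufs5 has 1 near-identical copy in the genome, and what part this has in the 0 was not tested. Its start carried an ATAC-seq peak in all 12 libraries, with a fold enrichment over local background of 10.4 to 14 in the kidney and 5.87 to 10 in the liver. The level listed for this gene was therefore not read as a measurement. The 200 bases before its start (GRCm38.p6, chr4:123718187-123718386, - strand, RefSeq), of which 16 are exonic in the annotation, are shown because they hold a match to the motif of NRF1, a factor known for activating respiratory genes, which is in capitals:
Ndufs5: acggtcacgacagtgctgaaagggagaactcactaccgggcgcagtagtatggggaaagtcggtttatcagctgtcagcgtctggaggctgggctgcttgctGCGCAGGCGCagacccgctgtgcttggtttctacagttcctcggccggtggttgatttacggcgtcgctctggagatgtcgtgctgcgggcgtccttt
That window held 17 CG pairs.

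The NRF1 letters (GCGC, any base, then TGCGC), searched on both strands of the 300-base windows, were found in 18 of the 71 member windows (25.4%) and in 4.6% of all windows. The YY1 letters AAGATGGC were found in 12.7% of member windows and 2.75% of all, and the ETS letters CCGGAAGT in 7.04% and 3.89%. TATAAA was found in 11.3% of member windows and 13.6% of all. The windows of members were richer in CG than those of all genes, and the shares were not corrected for this. A match is a stretch of letters and does not show that the factor was bound.

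Open chromatin at the starts was shared by nearly all subunits. A peak within 1 kb of an annotated start was present in all 12 libraries for 75 of the 85 members (88.2%), against 48.6% of the 24534 annotated genes. Within 250 bp the number was 71, and when only peaks with −log10 q of 5 or more were kept it was 55. No peak was found in any library for 5 members, namely Cox6a2, Cox7b2, Cox8b, Cox8c and Ndufb4c, of which the Cox genes are forms known from muscle, fat or testis. The other 5 had a peak in some libraries, from 2 for Cox4i2 and 4 for Ndufa4l2 to 8 for Cox6b2, 9 for Ndufa7 and 11 for Uqcr11. Cox7a1, also a form known from muscle, had a peak in all 12 libraries.

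Cox6b2 encodes a form of a complex IV subunit known from the testis. It had a peak in 6 of 6 kidney libraries, in 2 of 3 young liver libraries and in no old liver library. The fold enrichment of these peaks was 3.45, 3.96 and 3.83 in the young kidney and 4.27, 3.59 and 5.83 in the old kidney, against 3 in both young liver libraries that had one. Peaks of Cox6b2 were low next to the median of the members, which was 6.93 to 8.89 over the kidney libraries and 4.58 to 6.24 over the liver libraries. The same medians over all genes with a peak were 5.81 to 7.34 and 4.48 to 5.28, and no test was run on them because each library was called on its own.

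**Figure D2:**
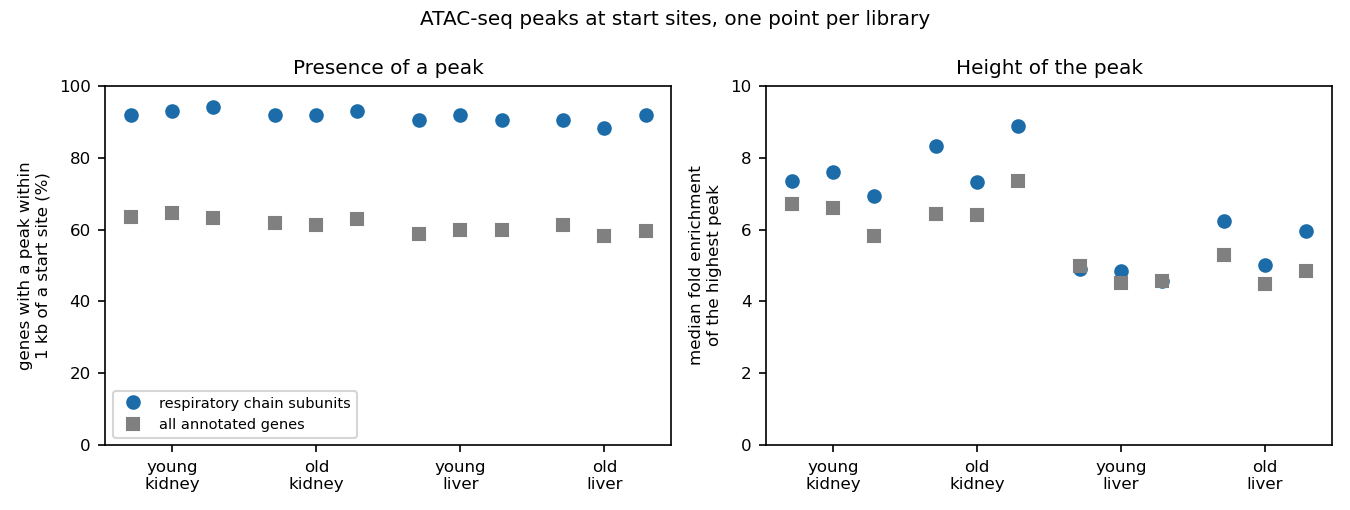
Left, percent of the 85 members (circles) and of all annotated genes (squares) with an ATAC-seq peak within 1 kb of a start, in each of 12 libraries. Right, median fold enrichment of the highest such peak, where members lie above all genes in each kidney library and near them in the young liver.

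The comparison of old with young kidney asks whether subunit levels change with age. Of 82 members tested, Cox6b2 was higher and Sdha and Ndufs1 were lower in the old kidney (edgeR quasi-likelihood test, Benjamini-Hochberg adjusted p under 0.05 over all genes), where 8.15% of all 14495 genes tested were called higher and 3.36% lower. No member passed a fold of 2 in addition, a rule that 5.68% of genes passed upward and 0.407% downward. CPM values of single members from here on are scaled over the libraries of the comparison in hand, so that the same library can have another CPM in another comparison. Summed CPM of members, complexes and markers stay scaled over the libraries of the series.

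Sdha encodes the flavoprotein of succinate dehydrogenase, which oxidises succinate. It stood at 1159.3, 1208.5, 1147.6 and 1141.2 CPM in the young kidneys and at 892.5, 941.2, 838.7 and 767.3 CPM in the old. The groups did not overlap, and the log2 fold change was -0.44 (SE 0.11, adjusted p = 0.0262). The other subunits of complex II gave 0.06 for Sdhb, -0.08 for Sdhc and -0.11 for Sdhd, and none was called.

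Ndufs1, the large iron-sulfur subunit of the electron input arm of complex I, stood at 309.4, 324.1, 308.8 and 310.1 CPM in the young kidneys and at 247.3, 257.6, 253.7 and 224.4 CPM in the old. The groups did not overlap, and the log2 fold change was -0.35 (SE 0.09, adjusted p = 0.0397). Sdha and Ndufs1 are among the longest members, and both lost their call in 6 of the 8 fits that left out 1 library (young replicate 1, 2 or 3, or old replicate 1, 3 or 4), with adjusted p-values of up to 0.0918 for Sdha and 0.128 for Ndufs1. Ndufs1 was also not called when no filter on low counts was applied (adjusted p = 0.0578), when libraries were scaled to total counts (adjusted p = 0.0617) or when a GC trend alone was removed (-0.22, adjusted p = 0.179).

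Cox6b2 stood at 5.86, 5.12, 5.08 and 8.92 CPM in the young kidneys and at 11.5, 8.71, 12 and 13.5 CPM in the old. The highest young library lay above the lowest old library, and the log2 fold change was 0.87 (SE 0.23, adjusted p = 0.0343). This call was lost as well without any of the same 6 libraries (adjusted p up to 0.114), and it was lost when the length and GC trend was removed (0.54, adjusted p = 0.0872). The widely expressed form Cox6b1 was not called.

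The remaining members were not called. Of the 82 tested, 64 had a log2 fold change above 0, with a median of 0.10, against a median of 0.02 over all genes, of which 7567 of 14495 were above 0. Without old kidney replicate 3 the median was -0.09, and 48 of the 82 members changed sign. By complex, the medians were 0.10 for I, -0.09 for II, 0.05 for III, 0.12 for IV and 0.11 for V. Atp5a1, the alpha subunit of the ATP synthase, did not overlap between the groups but was not called (-0.26, SE 0.12, adjusted p = 0.164). In all, 3 members were lower without overlap and 0 were higher without overlap, shares of all genes for which were 6.91% and 10.9%. The range of the old kidneys was wide, at 16235.9 to 29493.2 summed CPM against 20569.0 to 27253.3 in the young, scaled over the series.

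Other genes of the same length had higher fold changes than the members. Among genes outside the lists, the median log2 fold change between old and young kidney was 0.26 under 750 bp, 0.28 from 750 to 1000 bp and 0.26 from 1000 to 1500 bp. It was 0.16 from 1500 to 2500 bp, 0.02 from 2500 to 4000 bp and -0.19 above 4000 bp. In the same classes the members had medians of 0.13 (30 genes), 0.08 (14), 0.09 (17), 0.04 (15), -0.31 (4) and 0.14 (2). Members thus lay below other genes of their length in all classes but the longest, which held 2 members. Along exon GC content the median of other genes went from -0.20 under 42% to 0.19 above 54%.

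**Figure D3:**
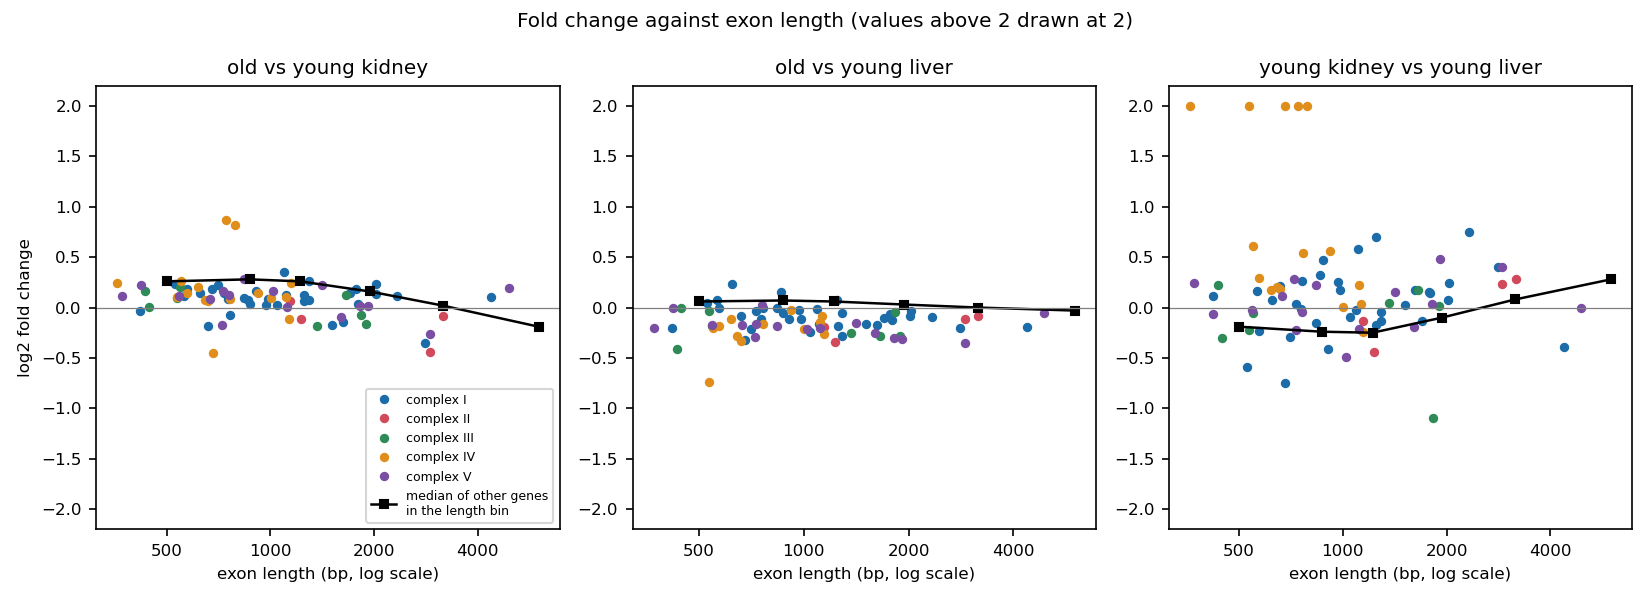
Log2 fold change of each member (points, by complex) against exon length on a log axis in 3 comparisons, with the median of genes outside the lists in each length class (black squares). In the old against young kidney the members sit below the line at short lengths, where the line is at 0.26 to 0.28, and in kidney against liver they sit above it, where the line is at -0.25 to -0.19.

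When a smooth trend along length and GC was taken out of each library, 22 members were lower in the old kidney and 0 were higher, against 7.4% and 9.78% of all genes. The median of the members was then -0.18, with 8 of 82 above 0, while that of all genes was -0.01. The 22 were 10 of 34 in complex I, 3 of 4 in complex II, 2 of 8 in complex III, 2 of 16 in complex IV and 5 of 16 in complex V. In complex II, Sdha (-0.45, adjusted p = 0.00587), Sdhd (-0.36, adjusted p = 0.0135) and Sdhb (-0.32, adjusted p = 0.0432) were called and Sdhc (-0.06) was not. In complex I, Ndufs1 had -0.33 (adjusted p = 0.0139).

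In complex V, Atp5g3, which encodes the rotor ring protein, had -0.42 (adjusted p = 0.0107) and Atp5a1 had -0.38 (adjusted p = 0.00851). Atp5g1 (0.41, adjusted p = 0.403) and Atp5g2 (-0.23, adjusted p = 0.0531), the other genes for the same ring protein, were not called. In complex III, Uqcrfs1, the Rieske iron-sulfur protein, had -0.39 (adjusted p = 0.00625), and in complex IV Cox4i1 had -0.35 (adjusted p = 0.014) and Cox6a1 -0.26 (adjusted p = 0.0482). For 11 of the 22 the sign was the opposite in the counts as deposited, where they lay between 0.01 and 0.14. These were Cox4i1, Cox6a1, Sdhb, Uqcr11, Atp5j, Atp5mpl, Ndufa8, Ndufb4, Ndufb7, Ndufs3 and Ndufs7. The direction given for the group therefore depends on whether the trend is taken as a property of the libraries.

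The trend itself varied within groups. Members deviated from the mean of the kidney libraries by a median of -0.16, -0.17, -0.09 and 0.32 in young replicates 1 to 4 and by 0.30, -0.42, 0.52 and -0.26 in the old on the log2 scale. After its removal the values were 0.13, 0.10, 0.04 and 0.21 in the young and -0.01, -0.22, 0.03 and -0.27 in the old. No old library was then above the lowest young library.

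Cell type markers moved in the same comparison. The 6 proximal tubule markers summed to 8414.5 to 9789.5 CPM in the young kidneys and 5399.8 to 6792.2 CPM in the old, with 0 of 6 higher and 2 of 6 lower, and none at 0. The 6 macrophage markers summed to 91.8 to 113.4 CPM and 458.7 to 876.5 CPM, with 6 of 6 higher. The 5 B and plasma cell markers summed to 3.61 to 7.48 CPM in the young and 223.2 to 323.0 CPM in the old, with 5 of 5 higher, and the 4 T cell markers to 1.84 to 2.70 and 7.67 to 12.6 CPM, with 3 of 4 higher. Of the other lists, Atp6v1b1 of the 3 collecting duct markers was lower (-0.36), and Thy1 of the 5 fibroblast markers (1.92) and Lep of the 5 adipocyte markers (2.67) were higher. The part of these in the values of Sdha, Ndufs1 and Cox6b2 was not tested, and in whole tissue fewer cells of a type and less RNA per cell cannot be told apart.

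Other mitochondrial genes gave few calls on the counts as deposited. Of 13 TCA cycle genes 0 were called in either direction by edgeR (median -0.22, 5 with an unadjusted p under 0.05), of 78 mitochondrial ribosome genes 0 (median 0.14, 5 unadjusted), and of 15 complex I assembly factors 0 (median 0.08, 3 unadjusted). Of 7 other subunits and carriers Coq10b, which binds coenzyme Q, was lower (-0.50, adjusted p = 0.034), of 13 regulators Tfb2m, a factor for transcription of the mitochondrial genome, was lower (-0.41, adjusted p = 0.0491), and 0 of the assembly factors tested for complexes II (4), III (6), IV (19) and V (4) were called, where 0, 0, 2 and 2 had an unadjusted p under 0.05. Of 78 genes of the cytosolic ribosome, which are also short, Rpl12 was higher (0.65, adjusted p = 0.0429), all 78 were above 0 and the median was 0.47. With the trend removed, the counts were 5 of 13 lower for the TCA cycle (median -0.28), 6 of 19 lower for complex IV assembly (median -0.22), 6 lower and 1 higher of 78 for the mitochondrial ribosome (median -0.08), and 10 of 78 higher for the cytosolic ribosome (median 0.19). They were 4 of 15 lower for complex I assembly (median -0.12), 0 of 4 for complex II assembly, 1 of 6 lower for complex III assembly, 1 of 4 lower for complex V assembly (median -0.29), 3 of 13 lower for the regulators (median -0.09) and 2 of 7 lower for the other subunits and carriers (median -0.16), and no gene of these 6 lists was called higher.

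In the old against young liver, 0 of 78 members tested were called by edgeR (1.91% of all genes were higher and 0.558% lower), and 0 had an unadjusted p under 0.05. DESeq2 also called 0. The median was -0.16, with 12 of 78 above 0, against 0 over all genes. Without young liver replicate 4 it was 0.07, and 41 of the 78 members changed sign. Levels of Atp5a1 in the old libraries were all below those in the young (-0.35, adjusted p = 0.488), a pattern met by 3.9% of all genes, and those of Atp5s, which encodes a coupling factor, were all above (0.35, adjusted p = 0.488), as for 6.05% of all genes. With the trend removed Uqcr10, a small subunit of complex III, was lower (-0.57, adjusted p = 0.0345), 0 members were higher and the median was -0.26, against 1.49% of all genes lower and 3.46% higher. The length classes of other genes spanned only -0.03 to 0.07 in this comparison. Markers called in the old liver were 4 of the 4 B and plasma cell markers tested and 2 of 6 macrophage markers, all higher, and their part in the values was not tested.

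An interaction term, the change with age in the liver minus that in the kidney, was fitted to compare ageing in both organs. No member passed (0 of 82 in edgeR, 0 with an unadjusted p under 0.05 and 0 in DESeq2, where 0.871% of all genes were higher and 0.845% lower in the liver effect). The differences were 0.38 for Sdha (adjusted p = 0.556), 0.20 for Ndufs1 (adjusted p = 0.771) and -1.81 for Cox6b2 (SE 0.88, adjusted p = 0.37), whose counts in the liver were at most 10 in a library.

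In the fibroblasts Cox6b2 was the only one of 81 members tested that was called with 3C, where 2.43% of all genes were higher and 1.78% lower. It stood at 31.6, 25.8 and 20.9 CPM with DMSO and at 43.7, 56.3 and 61.7 CPM with 3C. Both groups stood apart, as for 13% of all genes upward, and the log2 fold change was 1.04 (SE 0.17, adjusted p = 0.00923), which also passes the fold of 2 that 1.23% of genes passed upward. With the trend removed it was again the 1 member called (1.11, adjusted p = 0.000417), where 3.69% of all genes were higher and 3.49% lower. The call was lost without DMSO replicate 3 (0.91, adjusted p = 0.0567) and held in the other 5 fits that left out 1 library.

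Markers of other cell types moved in the same comparison. The 6 macrophage markers summed to 241.5 to 317.5 CPM with DMSO and 91.4 to 148.2 CPM with 3C, with 2 of 6 lower (Lyz2, -1.35, and Csf1r, -0.94) and none at 0. Alb of the hepatocyte markers (-3.13) and Acta1 of the skeletal muscle markers (-1.04) were lower, where the summed hepatocyte markers reached at most 2.81 CPM, and 0 of 5 fibroblast markers were called. The part of these in the value of Cox6b2 was not tested.

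The other members were mostly below 0 and were not called. Only 7 of 81 were above 0, with a median of -0.12 against 0.01 over all genes, and with the trend removed the median was -0.03, with 35 above 0. Without 3C replicate 1 the median was -0.01 and 30 of the 81 members changed sign, and without DMSO replicate 1 27 of the 81 did. Medians by complex were -0.11 for I, -0.11 for II, -0.18 for III, -0.17 for IV and -0.18 for V. The members Atp5a1, Atp5b, Ndufa4 and Sdhc were lower in each 3C library than in any DMSO library, as were 12.5% of all genes. Atp5b had -0.34 (adjusted p = 0.177) and Atp5g1 -0.40 (adjusted p = 0.223). DESeq2 called Atp5b lower (-0.35, adjusted p = 0.0457), which no other setting did, and without 3C replicate 3 edgeR called Atp5g1 lower (-0.60, adjusted p = 0.044).

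In the kidney and liver with 3C, 0 members were called by edgeR (0% of all genes in either direction). In the kidney the median of 82 members was 0.04, 62 were above 0, and the 1 member with an unadjusted p under 0.05 was Sdha (0.17, SE 0.06, adjusted p = 0.332), which was higher in each 3C library than in any DMSO library, as were 3.1% of all genes, while Ndufb4c (-0.36, adjusted p = 0.461) was lower in each, as were 3.84% of all genes. DESeq2 called 69 genes higher and 152 lower in this comparison, of which 0 were members, and 1786 of 14974 genes had an unadjusted p under 0.05 in edgeR. In the liver the median of 78 members was -0.02, and the 1 member with an unadjusted p under 0.05 was Ndufb4c (0.77, adjusted p = 1), which was also the 1 member higher in each 3C library (1.1% of all genes), and Atp5o (-0.21, adjusted p = 1) was lower in each (1.11% of all genes). There DESeq2 called 5 genes higher and 2 lower, of which 0 were members, and 436 of 13042 genes had an unadjusted p under 0.05. The effect of 3C did not pass a test of the difference between the tissues for any of 82 members (Cox6a2 and Ndufb4c had an unadjusted p under 0.05, and DESeq2 called 0), and 0% of all genes passed it. The kidneys with DMSO and with 3C lay close together, with summed levels, scaled over the series, of 19389.8 ± 238.4 and 20021.2 ± 1304.8 CPM (SD, n = 4).

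**Figure D4:**
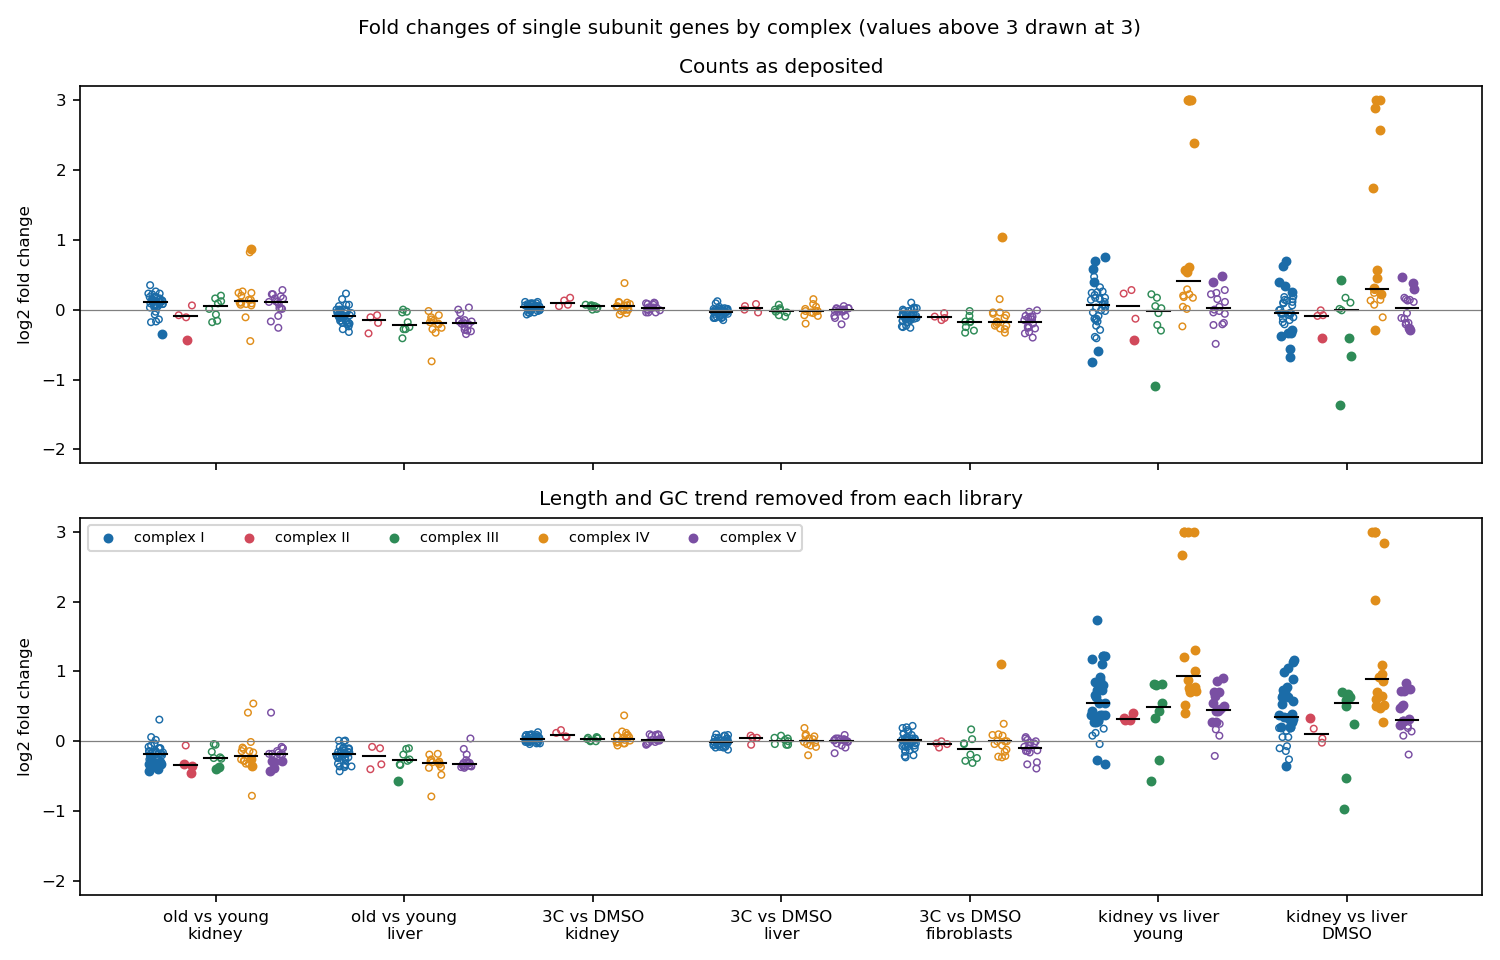
Log2 fold change of each member by complex (colours) in 7 comparisons, for the counts as deposited (top) and with the length and GC trend removed (bottom), with filled points for adjusted p under 0.05, bars at the median of the complex and values above 3 drawn at 3. Removing the trend moves the members down in the old kidney, to a median of -0.18, and up in kidney against liver, to 0.58 and 0.51.

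Kidney and liver were compared within each series, kidney minus liver. In young mice 14 of 82 members were higher in the kidney and 4 lower, below the 35.1% and 30.2% of all genes, and with the replicate number as a block, which pairs the libraries here, 24 were higher and 10 lower, where 38.2% and 33% of all genes were. With DMSO 21 of 82 were higher and 13 lower, against 38.7% and 33.2% of all genes. A fold of 2 was passed by 5 members upward and 1 downward in the young (25.7% and 16.9% of genes) and by 6 and 1 with DMSO (26.6% and 15.7%). Those upward were Cox4i2, Cox6a2, Cox6b2, Cox7a1 and Cox8b in both and Ndufa4l2 with DMSO. The count in the young rose to 24 higher without liver replicate 4, and the count of lower members rose to 7 without liver replicate 2.

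Complex IV held 8 of the 14 higher members in the young and 9 of the 21 with DMSO, but 4 of them in each series (Cox4i2, Cox6a2, Cox6b2 and Cox8b) passed the filter on low counts through the kidney alone, so that their direction was fixed by the filter. Without these 4 complex IV gave 4 higher and 0 lower of 12 in the young and 5 higher and 1 lower with DMSO, with medians of 0.21 and 0.23. Of all genes 35.1% were higher and 30.2% lower in the young, and 38.7% and 33.2% with DMSO. The numbers higher in complex IV thus lay near the share of all genes. With Cox4i2, Cox6a2, Cox6b2 and Cox8b counted, in young mice 8 of 16 were higher and 0 lower in complex IV. The numbers were 4 and 2 of 34 in complex I, 0 and 1 of 4 in complex II, 0 and 1 of 8 in complex III and 2 and 0 of 16 in complex V. With DMSO the counts were 9 and 1 in complex IV, 5 and 6 in complex I, 0 and 1 in complex II, 1 and 3 in complex III and 3 and 2 in complex V. The median of complex IV was 0.41 in the young and 0.29 with DMSO, and those of the other complexes lay between -0.09 and 0.07. With the block complex IV held 9 of the 24 higher members in the young, or 5 without those 4, and none of the lower, and the numbers higher and lower were 8 and 5 in complex I, 1 and 1 in complex II, 1 and 2 in complex III and 4 and 1 in complex V. The median of all genes was 0.08 and 0.07.

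Among the higher members of complex IV were the tissue forms, at levels far below those of the widely expressed forms. The adjusted p-values given below for Cox6a2, Cox6b2 and Cox8b carry the limit of the filter and are no test of direction. Cox8b stood at 15.8, 6.64, 13.8 and 9.49 CPM in the young kidney and had no count in any young liver library, which makes it at least 229-fold higher against a floor of 3 counts over the group (adjusted p = 1.5e-06). With DMSO it stood at 4.07, 7.60, 11.7 and 6.80 CPM in the kidney and at 0.143, 0, 2.77 and 0 CPM in the liver. All kidney libraries were above all liver libraries, and the log2 fold change was 3.44 (SE 0.82, adjusted p = 0.0025), or 7.06 without liver replicate 3, which held 33 counts, the others 0 to 2. DESeq2 did not call it there (adjusted p = 0.0571).

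Cox7a1 stood at 17.4, 12.4, 10.9 and 17.4 CPM in the young kidney and at 3.13, 2.10, 1.44 and 4.53 CPM in the young liver. Kidney and liver libraries did not overlap (log2 fold change 2.38, SE 0.32, adjusted p = 3.5e-05), and with DMSO the difference was 2.57 (SE 0.36, adjusted p = 4.08e-05). The widely expressed Cox7a2 was at 132.9 to 254.4 CPM in both young tissues, with 0.18 (adjusted p = 0.466), and was higher in the DMSO kidney by 0.45 (adjusted p = 0.0028). Cox7a2l encodes a factor that joins complexes III and IV and is counted here in complex IV. It was not called in either series (-0.24 and -0.11), and turned to 0.52 and 0.50 (adjusted p = 0.000327 and 4.21e-05) with the trend removed. Neither Cox7a2 nor Cox7a2l was called in the young with the block (adjusted p = 0.0866 and 0.0777).

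Cox6b2 stood at 4.02, 3.49, 3.43 and 6.02 CPM in the young kidney and at 0.125, 0.0583, 0.0719 and 0.742 CPM in the young liver. The groups did not overlap, and the differences were 4.13 (SE 0.58, adjusted p = 4.94e-05) in the young and 4.44 (SE 0.35, adjusted p = 2.72e-07) with DMSO. Cox6a2, the muscle form whose start carried no peak, was at 1.10 to 1.94 CPM in the young kidney and at 0 to 0.251 CPM in the liver, where all libraries together held 6 counts (3.80, SE 0.61, adjusted p = 0.000159). Cox4i2, a form known from lung and responsive to low oxygen, was at 0.435 to 0.848 CPM in the young kidney, and its count in the young liver was 2 in 1 library and 0 in the other 3.

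**Figure D5:**
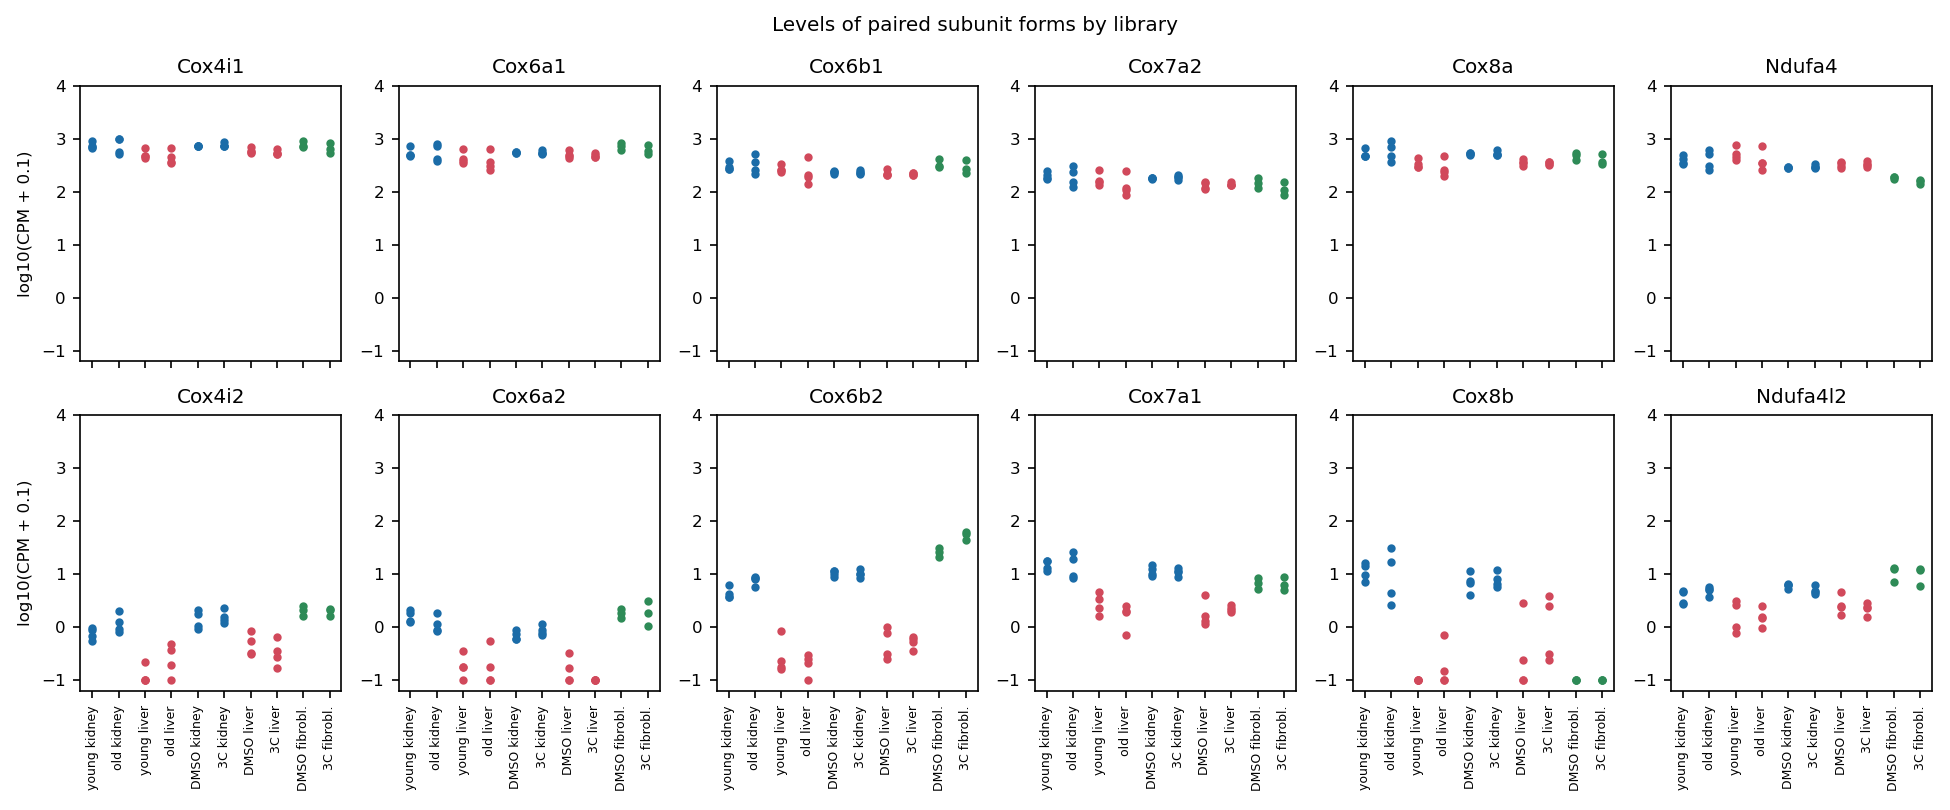
Level of 12 genes in each library, as log10 of CPM plus 0.1, with the widely expressed form above and the restricted form below, for kidney (blue), liver (red) and fibroblasts (green). Restricted forms other than Ndufa4l2 lie higher in kidney than in liver within each series, Cox6b2 is highest in the fibroblasts, and Cox8b lies at the bottom of the axis in every fibroblast library.

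Cox8b is also a gene of brown fat, and the 3 brown adipocyte markers varied widely between kidney libraries, at 10.1 to 72.1 CPM in the young and 0.211 to 109.9 CPM in the old. Old kidney replicate 3 had 2320 counts of Ucp1, the uncoupling protein of brown fat, and 946 of Cox8b. Old kidney replicate 4 had 2 counts of Ucp1 and 181 of Cox8b. Every young liver library had 0 counts of Ucp1. Skeletal muscle markers were at no more than 2.15 CPM in the untreated kidneys. The part of brown fat RNA in the kidney level of Cox8b was not tested. In the old against young kidney Cox8b gave 0.24 and Cox7a1 0.10, and neither was called (adjusted p = 0.826 and 0.863).

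Widely expressed subunits of complex IV differed less between the tissues. Cox8a stood at 455.6, 449.6, 458.4 and 656.3 CPM in the young kidney and at 324.0, 289.4, 282.8 and 429.2 CPM in the young liver. The groups did not overlap (0.61, SE 0.18, adjusted p = 0.0117), and with DMSO the difference was 0.56 (SE 0.11, adjusted p = 0.000603). Cox5b was higher in the young kidney by 0.56 (adjusted p = 0.00849), while with DMSO it had 0.28 (adjusted p = 0.0624), was not called and its libraries overlapped. Cox4i1, the subunit to which Cox4i2 is the alternative, was higher by 0.54 in the young (adjusted p = 0.0207), although its libraries overlapped, and by 0.31 with DMSO (adjusted p = 0.0259), where they did not. Cox6a1 and Cox6b1 were not called in either series without the block, with which Cox6a1 was higher in the young kidney (0.32, adjusted p = 0.0212).

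The NDUFA4 pair had values of opposite sign in the counts as deposited, and of the same sign with the trend removed. Ndufa4 had -0.43 in the young (adjusted p = 0.109) and -0.18 with DMSO (adjusted p = 0.128), and was not called, while with the block it was lower in the young kidney (-0.40, adjusted p = 0.00684). After trend removal it was higher, by 0.51 (adjusted p = 0.00161) and 0.64 (adjusted p = 3.37e-05). Ndufa4l2, its paralog that is known to respond to low oxygen, stood at 6.28, 6.35, 5.18 and 6.55 CPM in the DMSO kidney and at 1.64, 2.49, 4.53 and 2.29 CPM in the DMSO liver. The groups did not overlap (1.16, SE 0.27, adjusted p = 0.00231), while in the young the difference was 1.02 (adjusted p = 0.063), or 1.15 with the block (adjusted p = 0.0266). After trend removal it was 1.25 and 1.34 (adjusted p = 0.0138 and 0.000247). In the young Ndufa4l2 reached the cutoff of the filter on low counts in 4 kidney and 3 liver libraries and passed through the kidney alone. Its values in the young are therefore no test of direction.

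In complex I, Ndufb8, an accessory subunit of the membrane arm, was higher in the kidney by 0.75 in the young (SE 0.20, adjusted p = 0.00557) and by 0.69 with DMSO (SE 0.10, adjusted p = 5.15e-05), and the groups did not overlap in either series. Ndufc1 was higher by 0.70 and 0.34, Ndufa12 by 0.58 and 0.62, and Ndufs1 by 0.40 and 0.39. Lower in the kidney were Ndufa7, with 83.1, 72.7, 83.1 and 109.8 CPM against 115.6, 113.6, 116.8 and 177.9 CPM in the young (-0.59, SE 0.18, adjusted p = 0.0132; -0.68 with DMSO), and Ndufa6 (-0.75 and -0.57). Subunits of one complex thus did not share a direction between the tissues on this scale.

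In complex III, Uqcrq, a small accessory subunit, stood at 228.5, 214.0, 218.6 and 317.1 CPM in the young kidney and at 473.1, 406.8, 447.2 and 765.3 CPM in the young liver. Every liver library lay above every kidney library, and the difference was -1.10 in the young (SE 0.22, adjusted p = 0.000774) and -1.37 with DMSO (SE 0.12, adjusted p = 7.05e-07). It was the 1 member that fell below the fold of 0.5 in both series, and it stayed lower with the trend removed (-0.57, adjusted p = 0.00537, and -0.97, adjusted p = 3.54e-06). Uqcr11 (-0.66) and Uqcrb (-0.40) were also lower in the DMSO kidney, and Uqcr10 was higher (0.43). Trend removal left Uqcr11 lower (-0.53, adjusted p = 0.000197) and Uqcr10 higher (0.71) and turned Uqcrb, which was then higher in the kidney (0.51, adjusted p = 0.000108). In the young counts as deposited none of these was called without the block. With it Uqcr11 was lower (-0.26, adjusted p = 0.0323), Uqcr10 was higher (0.26, adjusted p = 0.041) and Uqcrb was not called (adjusted p = 0.122).

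In complex II, Sdhd, a membrane anchor, was lower in the kidney by -0.44 in the young (SE 0.16, adjusted p = 0.0291) and by -0.41 with DMSO (SE 0.09, adjusted p = 0.00124). With the trend removed the direction turned, to 0.30 and 0.18. Sdha, Sdhb and Sdhc were not called in either series without the block. With it Sdhc was higher in the young kidney (0.28, adjusted p = 0.0253), and Sdha (0.24, adjusted p = 0.0604) and Sdhb (-0.13) were not called. In complex V, Atp5b was higher by 0.48 in the young (SE 0.18, adjusted p = 0.0315) and by 0.46 with DMSO (SE 0.13, adjusted p = 0.00707), and Atp5a1 by 0.40 and 0.38. Both encode subunits of the catalytic head, and none of Atp5g1, Atp5g2 and Atp5g3 was called without the block, with which Atp5g3 was higher in the young kidney (0.28, adjusted p = 0.0278). After trend removal Atp5g3 was higher in both series (0.91 and 0.72).

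The tissue difference turned on how libraries were scaled and on the length trend. Scaled to total counts, the median of all genes was 1.16 higher in the young kidney than in the liver, on the log2 scale, and that of the members 1.22. With DMSO the median was 1.06 for both all genes and members. The 80 and 81 of 82 members called higher on this scale, and the 0 and 1 called lower, are to be read against that shift, with 74.3% and 76.1% of all genes higher and 11.2% and 11.4% lower. Members called lower in the young under TMM, namely Ndufa6, Ndufa7, Sdhd and Uqcrq, stood at 0.35, 0.51, 0.65 and 0.01 on it, below the median of all genes. With the length and GC trend removed, 68 members were higher and 4 lower in the young (38.7% and 32.6% of genes), with a median of 0.58 against 0.11. On that scale 63 were higher and 3 lower with DMSO (41.3% and 33.9%), with a median of 0.51 against 0.12. Without the members that passed the filter through the kidney alone, 63 of 77 were higher and 4 lower in the young (median 0.55). With DMSO 59 of 78 were then higher and 3 lower (median 0.48). The members of complex IV other than Cox4i2, Cox6a2, Cox6b2 and Cox8b, which passed the filter through the kidney alone, numbered 12 and were called higher in both series on that scale, with medians of 0.77 and 0.68. Ndufa7, Uqcrq and Uqcr11 were lower in both, and Ndufa6 in the young alone (-0.27, adjusted p = 0.0478, and -0.14, adjusted p = 0.137).

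Other lists were read in the young kidney against liver too. Of 13 TCA cycle genes 8 were higher and 1 lower (median 0.47), of 78 mitochondrial ribosome genes 8 were higher and 33 lower (median -0.33), and of 77 cytosolic ribosome genes 1 was higher and 44 lower (median -0.52). The assembly factors of complex IV gave 3 higher and 9 lower of 19 (median -0.21) and those of complex I 2 higher and 3 lower of 15 (median -0.23). With the trend removed, the mitochondrial ribosome gave 25 higher and 16 lower and the cytosolic ribosome 7 higher and 14 lower. Of all genes 35.1% were higher and 30.2% lower, and 38.7% and 32.6% with the trend removed. No test compared these lists with the members.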

How the data were processed

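RNA-seq and ATAC-seq of mouse kidney, liver and skin fibroblasts were used as deposited. Per the submitters' processing notes and the study's methods, the authors' RNA-seq pipeline used Trimmomatic 0.39 for trimming, HISAT2 2.2.1 for alignment (mm10) and HTSeq 0.12.4 for unstranded counting. These deposited counts are unscaled, and tallies of reads outside genes (8.1% to 21.3% of the reads in genes and tallies) were left out. The tally of reads without a unique place was 0 in every DMSO and 3C library and 1837098 to 6225292 in the untreated libraries. Such reads may therefore have been handled differently in the untreated series, and what this does to members with copies was not tested. For ATAC-seq the authors used Bowtie2 2.3.5.1 and, after removal of duplicates, MACS2, library by library. A deposited peak carries a fold enrichment, a ratio over local background, and a −log10 q. The 54 pairs of replicates all differed beyond sampling noise (smallest chi-square per degree of freedom 8.12), so none was counted as a duplicate.

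Members and gene lists were chosen with earlier results of these data known. Each comparison was fitted over all genes in edgeR 4.0.16 (R 4.3.3, quasi-likelihood test, two-sided) with TMM scaling and filterByExpr at a minimum count of 10, with Benjamini-Hochberg adjustment. A gene was called at an adjusted p under 0.05. A further rule asked for a fold above 2 or below 0.5. Untreated and treated series were not compared. The trend along length and GC was a spline of dimension 6 per library in mgcv 1.9.3, over exon lengths of 256 to 16384 bp, entered as an offset. The fits were tested on simulated data. Copies were sought with BLAST+ 2.17.0, and figures were drawn with matplotlib 3.10.9. Depth of 14.2 to 43.7 M counts leaves single counts only for the restricted forms, and floors cover counting error only.

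Genes named were the paralog forms of complex IV, the NDUFA4 pair, the Atp5g genes and the Sdh genes, the members of smallest p (up to 4 per direction) and of largest change per complex among those called, and the highest and lowest per kilobase. Atp5a1, Atp5s in the liver, Ndufc1, Cox5b, the other members named with the trend removed, the further Uqcr genes, members named for not overlapping with 3C and the genes named from other lists were named after their values were seen. Replicate numbers were checked as pairs by correlating deviations from group means. In young kidney against young liver every pair was above 0.1 (0.120, 0.219, 0.104 and 0.452), so that the numbers pair those libraries by the rule used, and the source of the pairing is not given in the sources used here. Alternatives were DESeq2 1.42.0, other size factors, no filter or a minimum mean of 1 CPM, the replicate block, trend removal by length, GC or both, and leaving out each library. Scaling to total counts and a trend fitted without the lists were added after seeing the data. Sequences came from a RefSeq promoter table of GRCm38.p6, which matched 66 of the 85 members. Protein sequences were not used here.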

Additional observations from a re-analysis of the deposited data

Results flagged for a closer look

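A library stood apart from the other 3 of its group by a gap above Dixon's critical share of the range in 13 of 93 groups of 4 examined, where chance gives about 1 in 20 for independent groups. These groups share libraries and genes, and 10 of the 13 values came from young kidney replicate 4 or young liver replicate 4. Sums are scaled here over the series and single genes over the comparison they come from. Young kidney replicate 4 was high for all members, at 27253.3 summed CPM against 20569.0 to 21667.3 in the others, for complex I (6229.6 CPM), complex III (2775.6 CPM), complex IV (5013.1 CPM) and Uqcrq (317.1 CPM). Young liver replicate 4 was high for complex I (6473.1 CPM), complex IV (4354.9 CPM), Ndufa7 (177.9 CPM), Ndufa6 (367.6 CPM) and Cox6b2 (0.742 CPM, from 10 counts). Without young liver replicate 4, 24 members in place of 14 were higher in the young kidney than in the liver, and without young kidney replicate 4 the number was 11. Single genes that stood apart elsewhere were Ndufs1 in young kidney replicate 2 (324.1 CPM against 308.8 to 310.1), Cox7a1 in DMSO liver replicate 1 (3.99 CPM against 1.07 to 1.51) and Ndufa7 in DMSO liver replicate 3 (169.4 CPM against 126.6 to 132.5). Values of Cox7a1 and Ndufa7 in the kidney against liver kept their call without each of these libraries.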

How the results depend on the processing

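Total counts and trend removal moved the calls between kidney and liver most, trend removal those in the old kidney, and the cause of the trend was not tested. In the old against young kidney, the number of members higher was 1 and became 0 with the trend along both properties or along length removed, with the trend fitted without the mitochondrial and ribosomal lists, and with the fold rule. The number lower was 2 and became 22, 18 and 24 under the same 3 removals, 1 with GC alone, without a filter and with total counts, and 0 with the fold rule. In the old liver the number lower went from 0 to 1, 1 and 2 under the 3 removals, and in fibroblasts DESeq2 gave 1 lower. In the young kidney against liver, the numbers higher and lower (14 and 4) became 80 and 0 with total counts, 68 and 4 with both trends removed, 70 and 2 with length alone or with the lists left out, and 5 and 1 with the fold rule, while GC alone gave 9 lower. The median went from 0.13 to 1.22, 0.58, 0.57 and 0.66 in the order total counts, both trends, length, lists left out. With DMSO the numbers (21 and 13) became 81 and 1, 63 and 3, 63 and 4, and 65 and 3 in that order, and 6 and 1 with the fold rule, and the median went from 0.07 to 1.06, 0.51, 0.44 and 0.53.

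The sign of a member called in at least 1 of both fits turned under trend removal and under total counts, and in none of the fits that left out a library. With both trends removed this held for 11 of 82 members in the old kidney, 18 in the young kidney against liver and 24 with DMSO, and with total counts for 30 in the young and 38 with DMSO. Values of named members follow. In the old kidney with both trends removed they were -0.35 for Cox4i1, -0.26 for Cox6a1 and -0.32 for Sdhb, and with the lists left out of the trend -0.37, -0.29 and -0.33, with -0.26 for Atp5g2. In the young kidney against liver with both trends removed they were 0.52 for Cox7a2l, 0.51 for Ndufa4, 0.31 for Sdhb and 0.30 for Sdhd, and with the lists left out 0.55, 0.58, 0.33 and 0.32. With DMSO these 4 gave 0.50, 0.64, 0.33 and 0.18, and 0.52, 0.69, 0.35 and 0.19. With length alone removed it turned for Atp5g2 (0.33), Cox7a2l (0.36), Sdhb (0.45) and Sdhd (0.13) in the young, and for Atp5g2 (0.27), Cox7a2l (0.34), Ndufa4 (0.29), Sdhb (0.44) and Sdhd (0.02) with DMSO. With total counts the young gave 1.09 for Atp5g1, 0.87 for Atp5g2, 0.86 for Cox7a2l, 0.67 for Ndufa4, 0.35 for Ndufa6, 0.51 for Ndufa7, 0.96 for Sdhb, 0.65 for Sdhd and 0.01 for Uqcrq. With DMSO and total counts the values were 0.95 for Atp5g1, 0.79 for Atp5g2, 0.89 for Cox7a2l, 0.81 for Ndufa4, 0.43 for Ndufa6, 0.32 for Ndufa7, 0.89 for Sdha, 0.99 for Sdhb, 0.92 for Sdhc and 0.58 for Sdhd. Of the values of named members over all alternatives, 3563 kept their side of the threshold, and 325 of these, called in neither fit, changed sign. A further 74 became called and 56 lost a call with the same sign, and 51 turned.

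Leaving out 1 library gave 0 to 1 members higher and 0 to 2 lower in the old kidney (median -0.09 to 0.24), a median of -0.49 to 0.07 in the old liver with 0 calls, and 0 to 1 higher and 0 to 1 lower in fibroblasts (median -0.28 to -0.01). It gave 11 to 24 higher and 3 to 7 lower in the young kidney against liver (median 0 to 0.24), and 16 to 26 higher and 9 to 18 lower with DMSO (median 0 to 0.1). With 3C, medians lay between -0.01 and 0.06 in the kidney and between -0.07 and 0.03 in the liver with 0 calls. The number of members with a peak in all libraries was 75 to 76. For the differences between tissues the medians lay between -0.52 and -0.03 for age and between -0.1 and 0.01 for 3C, with 0 calls.

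With the replicate block, 24 members were higher and 10 lower in the young kidney against liver, where the numbers pair the libraries by the rule used. In the other comparisons correlations of same-numbered libraries ran from -0.310 to 0.334 and at least 1 was under 0.1, so the libraries share only a number and no pairing was read. There the block gave 1 higher and 0 lower in the old kidney (844 and 213 of 14495 genes), 1 and 0 in fibroblasts (304 and 179 of 13449 genes), 21 and 11 in the DMSO kidney against liver (5756 and 4845 of 14981 genes), and 0 in the others. In none of them did every library correlate best with its own number, nor in the young, where kidney replicate 2 correlated best with liver replicate 1.

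Depth limits the restricted forms, which had under 100 counts in most liver libraries, and Ndufs5, Cox7b2 and Cox8c had no usable level.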
